A study of Mus musculus with 20 samples.

Results

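The 38 genes described here serve the integrated stress response and the unfolded protein response of the endoplasmic reticulum (ER). They were taken by name, through the NCBI GeneIDs of the count files, from a list of ATF4 targets, stress kinases and ER chaperones, and make up 38 of the 46318 genes counted. The list has an ATF4 arm of 18 genes and an XBP1 and ATF6 arm of 20 genes, and all 38 had enough reads to be tested among 13307 genes. Bone marrow cells of female C57BL/6 mice were differentiated with macrophage colony-stimulating factor, and the resulting macrophages were kept for 24 h with DSHN at 50 µM plus GW3965 at 1 µM, with DSHN at 50 µM, with GW3965 at 1 µM, or with DMSO, the solvent. The labels describe DSHN as an agonist of the nuclear receptor NR0B2 and GW3965 as an agonist of the oxysterol receptor LXR, which NR0B2 is known to inhibit. Each treatment has 5 libraries, named in the labels as biological replicates without saying which mouse each came from, so the p-values below measure the spread between these cultures.

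In the integrated stress response, kinases such as PERK (Eif2ak3) and GCN2 (Eif2ak4) phosphorylate the translation factor eIF2alpha, which slows protein synthesis in general but favours translation of ATF4. ATF4 then switches on genes of amino acid supply and of recovery. In the unfolded protein response, misfolded protein in the ER activates PERK, IRE1 (Ern1), which splices the Xbp1 mRNA, and ATF6, which is cut at the Golgi, and XBP1 and ATF6 raise ER chaperones and degradation factors. Macrophages, which secrete and engulf much, carry both pathways, and lipid load of the ER is a known trigger. Read counts per gene show the amount of mRNA; they show neither phosphorylation, nor ATF4 protein, nor the spliced form of Xbp1.

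The arms differ in the sequence before their start sites. The 250 bases upstream of the start were searched on both strands, from RefSeq promoters of mouse build GRCm38.p6, which hold 17 members of each arm. The ATF4 element (TGATGNAA, called CARE) was found before 3 of the 17 ATF4 arm members, Asns, Chac1 and Nupr1, and before 1 of the 17 members of the other arm, Herpud1, against 3.45% of 32851 promoters. The ER stress element (CCAAT, 9 bases of any kind, then CCACG, called ERSE) was found before 8 of the 17 XBP1 and ATF6 arm members and 0 of the 17 ATF4 arm members, against 0.113% of all promoters. Its holders were Hspa5, Hsp90b1, Dnajc3, Creld2, Calr, Canx, Pdia6 and Syvn1. A second form, ERSE-II, stood before Herpud1 (0.0304% of all promoters), and the element TGACGTGG (UPRE) before no member (0.563%). No matched stretch of 1 search overlapped that of another in these members. Slc7a5, Atf6, Hyou1 and Manf had no matched promoter. In the 5 promoters printed below, CARE stands in Asns and, on the opposite strand, in Chac1 and Herpud1. ERSE-II stands further downstream in Herpud1, and ERSE in Hspa5 and, on the opposite strand, in Creld2. The promoters show these elements in capitals. They lie at chr6:7693210-7693459 (minus strand), chr2:119350992-119351241 (plus strand), chr8:94386179-94386428 (plus strand), chr2:34771840-34772089 (plus strand) and chr15:88819396-88819645 (plus strand), all 5′ to 3′ in the gene's direction. A match is a description of the letters, not of bound protein.
Asns: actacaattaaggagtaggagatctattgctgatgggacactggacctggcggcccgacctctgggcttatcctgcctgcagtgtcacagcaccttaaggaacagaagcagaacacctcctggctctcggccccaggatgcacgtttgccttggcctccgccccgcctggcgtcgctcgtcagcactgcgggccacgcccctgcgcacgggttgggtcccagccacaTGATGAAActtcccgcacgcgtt
Chac1: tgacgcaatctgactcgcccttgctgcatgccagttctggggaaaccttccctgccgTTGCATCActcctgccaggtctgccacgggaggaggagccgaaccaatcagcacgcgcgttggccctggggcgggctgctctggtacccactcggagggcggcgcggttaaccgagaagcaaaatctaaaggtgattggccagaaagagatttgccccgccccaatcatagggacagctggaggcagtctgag
Herpud1: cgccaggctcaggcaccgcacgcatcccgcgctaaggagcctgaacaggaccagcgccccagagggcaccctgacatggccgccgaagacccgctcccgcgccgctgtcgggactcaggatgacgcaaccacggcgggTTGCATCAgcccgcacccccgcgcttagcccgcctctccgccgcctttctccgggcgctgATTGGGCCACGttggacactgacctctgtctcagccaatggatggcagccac
Hspa5: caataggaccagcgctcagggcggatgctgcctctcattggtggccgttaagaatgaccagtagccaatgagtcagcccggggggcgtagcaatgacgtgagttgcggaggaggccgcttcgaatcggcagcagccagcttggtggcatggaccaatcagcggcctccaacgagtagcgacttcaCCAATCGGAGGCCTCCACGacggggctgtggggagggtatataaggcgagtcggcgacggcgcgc
Creld2: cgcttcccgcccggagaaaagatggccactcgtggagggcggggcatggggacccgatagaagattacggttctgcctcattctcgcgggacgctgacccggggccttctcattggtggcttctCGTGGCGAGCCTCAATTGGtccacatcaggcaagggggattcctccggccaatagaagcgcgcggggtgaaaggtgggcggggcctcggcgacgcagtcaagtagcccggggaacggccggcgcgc

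Per kilobase of exon, in DMSO cultures, the ER chaperones were the most abundant members. Calr, a lectin chaperone, had 628 CPM per kb, Hsp90b1 467, the disulfide isomerase Pdia3 328, and Hspa5, the chaperone that holds the sensors inactive, 257. Exon length here includes bases shared with exons on the opposite strand, 33.6% for Hspa5 and 8.48% for Pdia3. By the counting defaults reads on these bases were left out, so both values may be understated and their order is not settled. CPM is the read count of a gene relative to the library size after TMM scaling. Atf4 was the most abundant ATF4 arm member at 83.3 CPM per kb. The stress-induced members stood at the low end, with Ddit3 at 5.74, Trib3 at 3.65 and Chac1, a glutathione-degrading enzyme, lowest of the 38 at 2.10 CPM per kb. Chac1 had 42 to 104 reads per library, and its spread was the widest of its arm in every treatment, with coefficients of variation of 10.2% to 19.0%. The median coefficient of variation over the 5 libraries of a group was 4.95% to 6.53% in the ATF4 arm and 3.40% to 5.84% in the XBP1 and ATF6 arm.

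The libraries held 16855029 to 23796561 counts. All 8 macrophage markers were present, with summed levels of 16005.8 to 19372 CPM, while dendritic, neutrophil, T and NK, erythroid and mast cell markers each summed to under 2 CPM. Collagens made the stromal markers sum to 1766 to 2150 CPM with both compounds, against 2070 to 3039 CPM in the other 15 libraries, and Ighm made the B cell markers sum to 48.1 to 79.9 CPM with both compounds and to 52.2 to 62.2 CPM with DSHN. The same sum was 55.9 to 82.5 CPM with GW3965 and 20.3 to 45.9 CPM with DMSO. The part of these markers in the results was not tested. The combination libraries also stood apart from the rest in 2 measures. For the first, the log2 CPM of every gene was centred on its average across all libraries and then regressed on log2 exon length. The sign of such a slope compares libraries and does not give the trend of CPM itself within a library. The slope was -0.124 to -0.0943 in the combination libraries against 0.00566 to 0.0630 in the other 15. Relative to those 15, short genes gained reads and long genes lost them in the combination libraries. The share of reads on non-coding RNA genes of the mitochondrial genome was 0.201% to 0.246% against 0.114% to 0.152%. Mitochondrial protein-coding genes are not part of this share. Combination treatment and length trend fall on the same 5 libraries and cannot be told apart by this design, so each contrast is also given with per-library offsets fitted on exon length, called the length term below. In bulk RNA, fewer expressing cells and less RNA per cell cannot be told apart either.

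Against DMSO, the combination raised the 5 transcription factors of the ATF4 arm, beside 31.9% of all tested genes called higher. DSHN alone lowered 6 of that arm's 7 enzymes and transporters of amino acid supply, beside 14.8% of all tested genes called lower. GW3965 alone raised 12 of the 20 XBP1 and ATF6 arm members and 8 of the 18 ATF4 arm members, beside 23.6% called higher. Every change was modest: the greatest of any member in any contrast was a log2 fold change of 0.99. A gene is called here when its adjusted p is under 0.05 in edgeR's quasi-likelihood test with Benjamini-Hochberg adjustment over all 13307 genes, and errors of log2 fold changes are standard errors. Fold changes give the treatment named first over the one named after it.

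**Figure D1:**
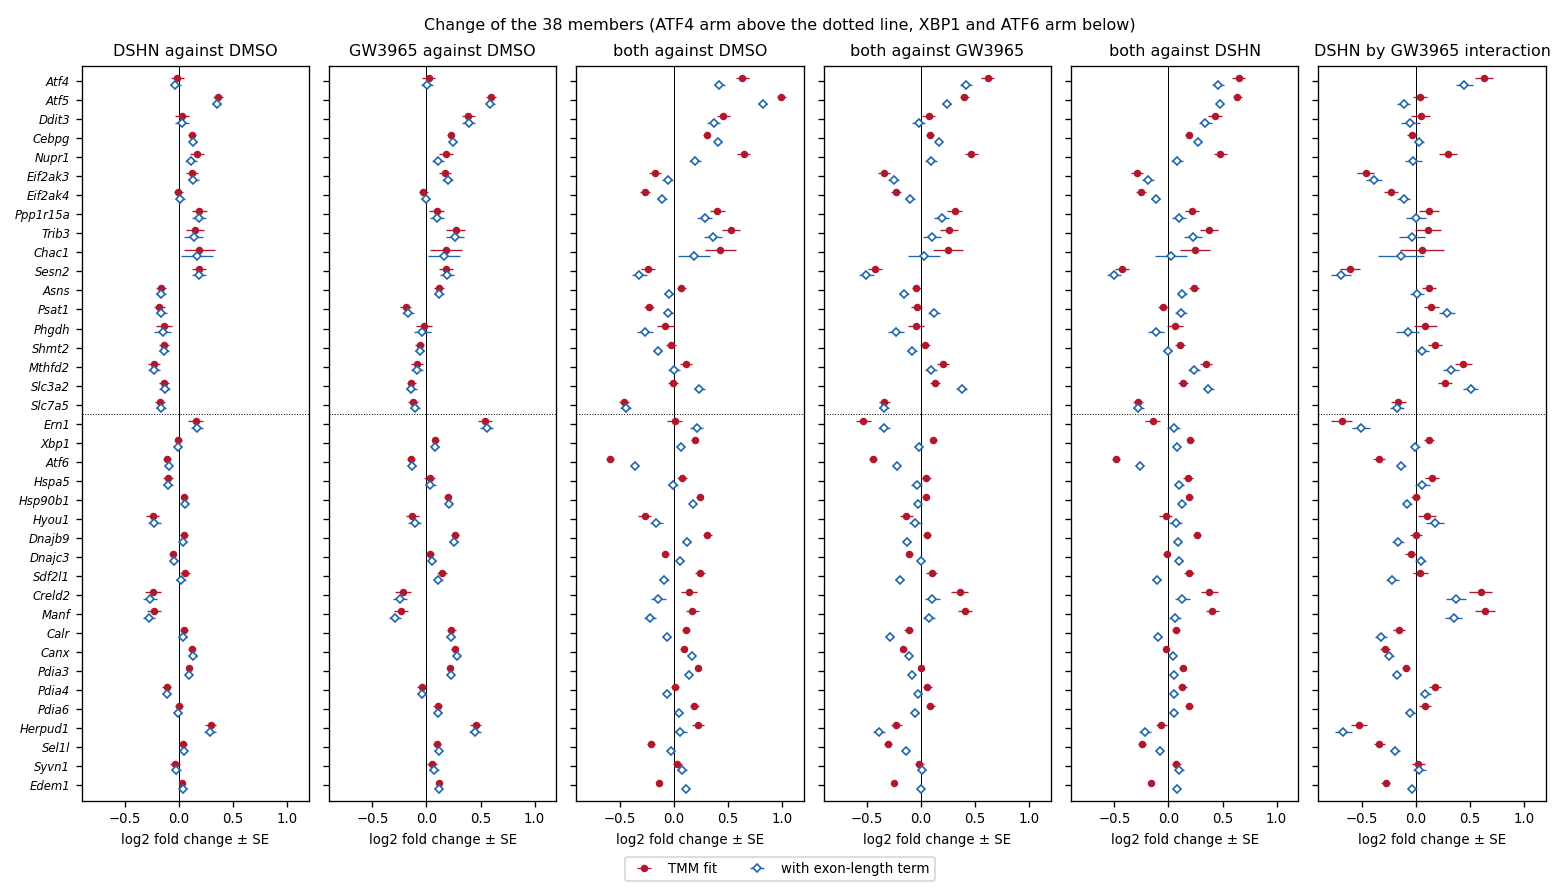
Log2 fold change (horizontal axis, ± SE) of the 38 members (rows) in 5 contrasts between treatments and in the interaction, from 5 libraries per treatment. Filled points come from the fit with TMM scaling and open diamonds from the fit with the length term; points and diamonds lie close together for DSHN and for GW3965 against DMSO and drift apart wherever the combination enters, as for Manf (0.17 and -0.22).

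In the ATF4 arm, DSHN against DMSO called 5 members higher and 6 lower of 18, beside 29.0% of all tested genes in either direction, 14.1% higher and 14.8% lower. The 5 higher members were the factors Atf5, Cebpg and Nupr1 and the feedback genes Ppp1r15a and Sesn2, while the 6 lower ones were all enzymes or transporters of amino acid supply, namely Asns, Psat1, Shmt2, Mthfd2, Slc3a2 and Slc7a5. The remaining enzyme, Phgdh, which opens serine synthesis, had -0.14 ± 0.07 (adjusted p = 0.171). The count fell to 6 without DMSO replicate 4. Single calls that ended without 1 library were Nupr1 (adjusted p 0.067 to 0.115 over 8 of the 10 libraries), Ppp1r15a (0.0548 to 0.112 over 7), Sesn2 (0.0543 to 0.097 over 5), Shmt2 (0.0545 to 0.0742 over 3) and Slc3a2 (0.0639 to 0.0752 over DMSO replicates 4 and 5). With the length term 10 of the 11 calls held, and Nupr1 was lost (0.11, adjusted p = 0.149).

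GW3965 against DMSO called 8 ATF4 arm members higher and 3 lower, beside 46.5% of all tested genes in either direction, 23.6% higher and 23.0% lower. The higher members were Atf5, Ddit3, Cebpg, Nupr1, Eif2ak3, Trib3, Sesn2 and Asns, and the lower ones Psat1, Slc3a2 and Slc7a5. Without DMSO replicate 4 the count was 7 in place of 11. Calls that ended without 1 library were those of Nupr1 (adjusted p 0.0524 to 0.074 over GW3965 replicates 3 and 5), Eif2ak3 (0.05 without DMSO replicate 4), Sesn2 (0.0734 to 0.0875 over DMSO replicate 4 and GW3965 replicate 1), Asns (0.0596 to 0.108 over 6 libraries), Slc3a2 (0.0555 without DMSO replicate 5) and Slc7a5 (0.0601 to 0.113 over 6). The length term kept 9 of the 11 calls and ended those of Nupr1 (0.10, adjusted p = 0.139) and Slc7a5 (-0.10, adjusted p = 0.0677).

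The combination against DMSO called 8 ATF4 arm members higher and 5 lower, beside 64.8% of all tested genes in either direction, 31.9% higher and 32.9% lower. All 5 transcription factors of the arm were higher (Atf4, Atf5, Ddit3, Cebpg and Nupr1), with Ppp1r15a, Trib3 and Chac1, while Sesn2, both kinases, Psat1 and Slc7a5 were lower. Against GW3965 alone the combination had 8 members higher and 4 lower, beside 57.8% of all tested genes in either direction, 28.3% higher and 29.5% lower. Against DSHN alone it had 11 higher and 4 lower, beside 58.1% of all tested genes in either direction, 28.6% higher and 29.5% lower. With the length term, 10 of 13, 9 of 12 and 12 of 15 of these calls kept their direction against DMSO, GW3965 and DSHN, beside 58.1%, 47.1% and 46.2% of all tested genes called in that fit. The Shmt2 call against DSHN ended without DSHN replicate 1, 2, 3 or 5 or combination replicate 1, 2, 4 or 5. With each left out alone, its adjusted p was 0.0502 to 0.113. The Slc3a2 call against GW3965 ended without combination replicate 1 or 4 or GW3965 replicate 2 (adjusted p 0.0558 to 0.0592).

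Atf4, the factor at the head of the arm (GeneID 11911, chromosome 15, 80139385 to 80141746 in GRCm39), was counted at 209, 211, 226, 239 and 231 CPM with both compounds, 152, 143, 155, 129 and 132 with DSHN, 129.8, 138, 146, 158 and 158 with GW3965, and 140.0, 129, 139, 153 and 159 with DMSO. The combination libraries all lay above the other 15, while the DSHN, GW3965 and DMSO ranges overlapped. The combination differed from DMSO by 0.63 ± 0.06, adjusted p = 8.55e-10, from GW3965 by 0.61 ± 0.06 and from DSHN by 0.65 ± 0.06. Neither compound alone shifted it detectably, with 95% intervals of -0.14 to 0.11 for DSHN and -0.10 to 0.15 for GW3965. The length term left 0.42, 0.41 and 0.46 for the same 3 contrasts (highest adjusted p = 4.63e-07).

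Atf5 (GeneID 107503, chromosome 7, 44461680 to 44466082), a factor that ATF4 induces and that shares its targets, changed most of the 38. It was counted at 107, 109, 118, 107 and 109 CPM with both compounds, 71.4, 70.2, 75.4, 70.7 and 65.7 with DSHN, 85.5, 85.3, 87.2, 78.7 and 80.4 with GW3965, and 53.7, 51.5, 59.9, 57.2 and 53.6 with DMSO. The 4 groups did not overlap, and the order from high to low was combination, GW3965, DSHN, DMSO. Its changes against DMSO were 0.99 ± 0.04, adjusted p = 7.89e-16 with both compounds, 0.36 ± 0.04, adjusted p = 1.11e-06 with DSHN and 0.60 ± 0.04, adjusted p = 3.08e-11 with GW3965. With the length term the combination value was 0.82. Exons of Nup62 on the opposite strand share 4.11% of its exon bases. Nup62 held 1283 to 2066 reads per library and Atf5 at least 983. The file headers name no strand option, and by the counting defaults reads on the shared bases were left out of both genes.

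Ddit3 (GeneID 13198, chromosome 10, 127126662 to 127132160), which encodes CHOP, a factor linked to cell death in long ER stress, was counted at 19.4, 17.5, 20.7, 20.3 and 22.2 CPM with both compounds, 15.8, 13.3, 15.8, 14.8 and 14.3 with DSHN, 19.2, 18.1, 19.1, 18.8 and 20.0 with GW3965, and 14.1, 14.9, 13.5, 14.8 and 15.6 with DMSO. Combination and GW3965 libraries lay above all DSHN and DMSO libraries and overlapped each other. GW3965 raised it by 0.39 ± 0.06, adjusted p = 1.08e-05, and the combination by 0.46 ± 0.06, adjusted p = 3.74e-07. DSHN alone gave 0.03 ± 0.06 (95% interval -0.10 to 0.16), and adding DSHN to GW3965 gave 0.07 ± 0.06 (95% interval -0.05 to 0.20). Opposite-strand exons of Mbd6 and Mars1 share 3.03% and 2.79% of its exon bases. Mbd6 held 452 to 759 and Mars1 915 to 1636 reads per library, against at least 253 for Ddit3. By the counting defaults, reads on the shared bases were left out of Ddit3 and of these genes.

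Cebpg, a dimer partner of ATF4, was counted at 93.6, 93.7, 95.6, 93.6 and 94.5 CPM with both compounds, 81.3, 84.3, 85.7, 78.6 and 83.8 with DSHN, 87.2, 87.7, 93.6, 91.3 and 85.1 with GW3965, and 75.2, 77.0, 75.1, 80.0 and 74.1 with DMSO. Combination and GW3965 ranges met only at the highest GW3965 library, and all GW3965 libraries lay above all DMSO libraries. The combination was above DMSO by 0.30 ± 0.03, adjusted p = 1.24e-08, and the length term left 0.41. Its call against GW3965 (0.08 ± 0.03, adjusted p = 0.039) ended without any of 8 single libraries (adjusted p 0.0502 to 0.114).

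Nupr1, a small stress-induced chromatin factor, has the shortest exons of the 38 at 626 bases. It was counted at 21.4, 20.8, 23.2, 22.5 and 22.0 CPM with both compounds, 15.7, 16.4, 15.6, 16.7 and 14.6 with DSHN, 14.0, 16.1, 16.8, 15.1 and 17.6 with GW3965, and 13.5, 13.4, 15.6, 14.0 and 13.6 with DMSO. The combination libraries lay above the other 15, whose ranges overlapped. The rise against DMSO was 0.65 ± 0.06, adjusted p = 7.24e-10, of which the length term left 0.19 (adjusted p = 0.00412). Against GW3965 the value of 0.46 ± 0.06 became 0.09 (adjusted p = 0.189).

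**Figure D2:**
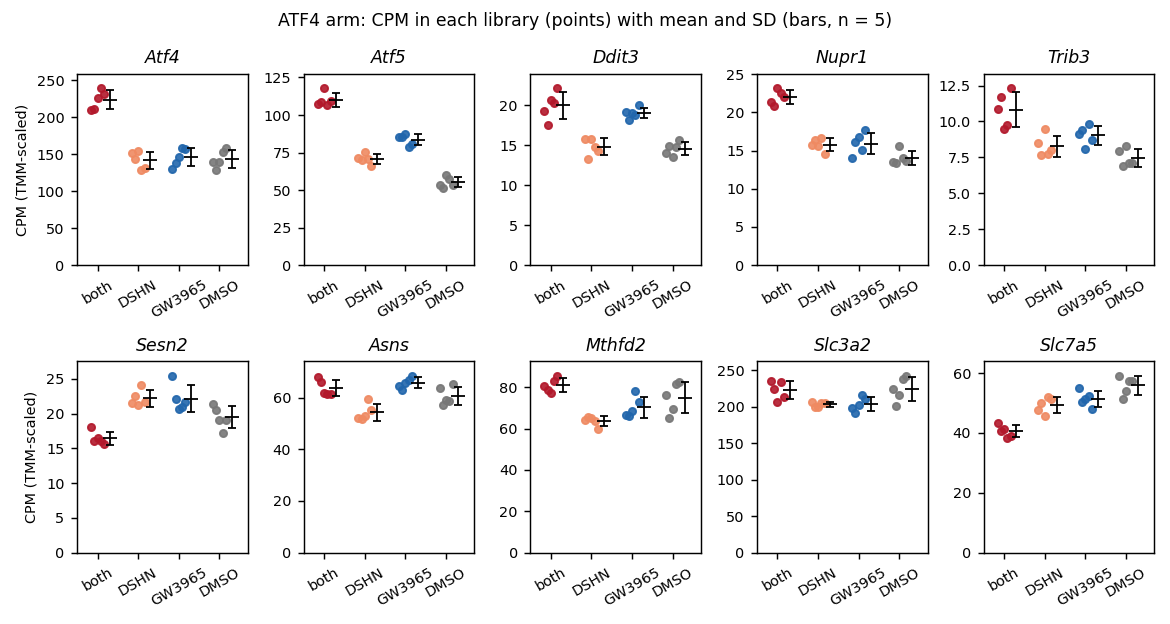
CPM (vertical axes, from 0, TMM-scaled) of 10 ATF4 arm members in each library (points), with mean and SD of the 5 libraries beside them, for both compounds, DSHN, GW3965 and DMSO from left to right. Atf4 and Nupr1 stood high in the combination alone of the 4 treatments, the 4 groups of Atf5 did not overlap, and Sesn2 and Slc7a5 were lowest with both compounds.

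Among the feedback genes, Ppp1r15a, which recruits the phosphatase that reverses eIF2alpha phosphorylation, averaged 22.9 ± 2.45 CPM with both compounds and 17.4 ± 1.05 CPM with DMSO (SD, n = 5 each), a rise of 0.40 ± 0.07, adjusted p = 9.26e-06. Trib3, a pseudokinase that restrains ATF4, averaged 10.8 ± 1.22 CPM with both compounds and 7.48 ± 0.622 CPM with DMSO, a rise of 0.53 ± 0.08. With the length term these were 0.28 and 0.36. Chac1 had 0.43 ± 0.14, adjusted p = 0.0108, and 0.19 (adjusted p = 0.283) with the length term. Sesn2, a leucine sensor of the mTORC1 pathway, went the other way. It averaged 16.5 ± 0.964 CPM with both compounds, 22.2 ± 1.18 with DSHN, 22.2 ± 1.95 with GW3965 and 19.5 ± 1.61 with DMSO. The combination had -0.42 ± 0.07 against GW3965 and -0.24 ± 0.07 against DMSO, and the length term moved both further from 0 (-0.51 and -0.32).

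The kinases Eif2ak3 and Eif2ak4 were lower with both compounds than with DMSO, at -0.17 ± 0.06, adjusted p = 0.0105 and -0.26 ± 0.05, adjusted p = 1.76e-05. Their exons span 4868 and 5596 bases, above the median of 3758 bases of all tested genes. With the length term Eif2ak3 was at -0.06 (adjusted p = 0.365) and Eif2ak4 at -0.11 (adjusted p = 0.0309). Against GW3965, Eif2ak3 stayed lower in both fits (-0.35 and -0.26).

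Of the amino acid enzymes, Mthfd2, which supplies one-carbon units in mitochondria, was counted at 80.9, 78.7, 77.5, 83.1 and 85.7 CPM with both compounds, 64.1, 65.6, 65.4, 63.6 and 60.1 with DSHN, 66.5, 66.0, 68.3, 78.0 and 73.1 with GW3965, and 76.5, 65.1, 69.4, 81.5 and 82.6 with DMSO. DSHN libraries all lay below the combination, overlapping DMSO by 1 library, and the combination libraries overlapped those of DMSO. DSHN gave -0.23 ± 0.06, adjusted p = 0.0024 against DMSO, and the combination gave 0.35 ± 0.06, adjusted p = 7.75e-06 against DSHN. Asns, asparagine synthetase, averaged 63.9 ± 3.05 CPM with both compounds, 54.4 ± 3.16 with DSHN, 65.9 ± 2.12 with GW3965 and 60.9 ± 3.45 with DMSO. Its values were -0.16 ± 0.04 for DSHN against DMSO and 0.23 ± 0.05 for the combination against DSHN. Psat1 of serine synthesis was lower with each compound and with both (-0.18 for DSHN, -0.19 for GW3965, -0.23 for the combination), the last at -0.05 with the length term. Phgdh and the serine converter Shmt2 were not called against DMSO in the combination (-0.08 and -0.03), but both were lower with the length term (-0.27, adjusted p = 0.00363, and -0.15, adjusted p = 0.00578).

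Slc7a5, the light chain of the LAT1 transporter of large neutral amino acids (GeneID 20539, chromosome 8, 122607885 to 122634425), was counted at 43.3, 40.6, 41.4, 38.2 and 39.1 CPM with both compounds, 47.8, 50.1, 45.6, 52.0 and 51.5 with DSHN, 55.1, 50.4, 51.4, 52.3 and 47.9 with GW3965, and 59.2, 51.4, 54.0, 57.5 and 57.5 with DMSO. The combination libraries lay below the other 15. The fall against DMSO was -0.46 ± 0.05, adjusted p = 5e-09, and it was the same size with the length term (-0.45). Its partner Slc3a2, the heavy chain, has exons of 9995 bases and had -0.01 without the length term and 0.24 (adjusted p = 0.000204) with it.

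In the XBP1 and ATF6 arm, DSHN against DMSO called 3 members higher (Canx, Pdia3 and Herpud1) and 5 lower (Atf6, Hyou1, Creld2, Manf and Pdia4) of 20, beside 14.1% and 14.8% of all tested genes. The count fell to 5 without DMSO replicate 5. Calls that ended without 1 library were Atf6 (adjusted p 0.0779 to 0.0875 over 3 libraries), Pdia3 (0.0564 without DSHN replicate 3), Creld2 (0.0537 to 0.0722 over DMSO replicates 4 and 5) and Pdia4 (0.0552 to 0.0873 over 4). GW3965 against DMSO called 12 members higher and 3 lower, beside 23.6% and 23.0% of all tested genes. The 12 were Ern1, Xbp1, Hsp90b1, Dnajb9, Sdf2l1, Calr, Canx, Pdia3, Pdia6, Herpud1, Sel1l and Edem1, and the 3 were Atf6, Creld2 and Manf. The arm's median log2 fold change was 0.0999 with GW3965, beside 0.00802 over all tested genes. All 15 calls held with the length term, which also called Ern1 higher with DSHN (0.17, adjusted p = 0.0345, against 0.15 and 0.103 without it). The weaker ones ended without 1 library, namely Xbp1 (adjusted p 0.0582 to 0.1 over 7 libraries), Pdia6 (0.0509 to 0.11 over 5), Sel1l (0.051 to 0.0978 over 4) and Creld2 (0.0541 to 0.0797 over 3).

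The combination against DMSO called 10 members of this arm higher and 4 lower, beside 64.8% of all tested genes in either direction. The fit with the length term called 6 higher and 3 lower, beside 58.1%. Of the 14 calls, 6 kept their direction (Hsp90b1, Dnajb9, Canx and Pdia3 higher, Atf6 and Hyou1 lower), and 2 turned round: Manf was at 0.17 and became -0.22 (adjusted p = 0.00142), and Edem1 was at -0.14 and became 0.11 (adjusted p = 0.00115). Against GW3965 the combination had 3 members higher and 9 lower, beside 57.8% of all tested genes, and 0 higher and 9 lower with the length term, beside 47.1%. Calls on the lower side in both fits against GW3965 were Ern1, Atf6, Calr, Canx, Herpud1 and Sel1l. Against DSHN it had 10 higher and 3 lower, beside 58.1% of all tested genes, and 4 higher and 5 lower with the length term, beside 46.2%. Of these 13 calls, 4 kept their direction and 2 were called in the opposite direction, while 3 members were called only with the length term.

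Of the sensors, Ern1 (IRE1, chromosome 11, 106285474 to 106378701) changed most with GW3965. It was counted at 68.8, 62.5, 59.8, 53.8 and 57.4 CPM with both compounds, 56.3, 64.7, 65.5, 73.5 and 75.2 with DSHN, 97.6, 89.3, 87.9, 82.0 and 81.8 with GW3965, and 63.2, 64.6, 56.1, 60.1 and 57.1 with DMSO. GW3965 libraries lay above all the others, which overlapped. GW3965 raised it by 0.54 ± 0.07, adjusted p = 3.39e-07, and adding DSHN to GW3965 gave -0.53 ± 0.07, adjusted p = 2.78e-07, or -0.34 with the length term. The combination differed from DMSO by 0.01 ± 0.07 (95% interval -0.14 to 0.15), or by 0.21 with the length term.

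Xbp1, whose spliced mRNA encodes the factor, was counted at 152, 157, 159, 171 and 154 CPM with both compounds, 140.0, 140.1, 137, 137 and 135 with DSHN, 148, 144, 147, 149 and 146 with GW3965, and 138, 134, 134, 146 and 141 with DMSO. The combination libraries lay above the other 15 by a small margin. The rise was 0.19 ± 0.03, adjusted p = 9.74e-06 against DMSO, and the length term left 0.06 (adjusted p = 0.0755). Atf6 (exons of 8186 bases) was counted at 140.5, 138, 131, 129.8 and 135 CPM with both compounds, 190.0, 177, 188, 192 and 196 with DSHN, 188, 185, 192, 179 and 177 with GW3965, and 212, 206, 195, 192 and 212 with DMSO. The combination libraries lay below all others, and the GW3965 range met that of DMSO only at its upper end. The fall with both compounds was -0.59 ± 0.04, adjusted p = 4.08e-13, of which the length term left -0.36 (adjusted p = 5.14e-10).

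Hspa5 (BiP, chromosome 2, 34662102 to 34666541), the most used readout of the pathway, was counted at 718, 694, 651, 740.1 and 738 CPM with both compounds, 626, 610.4, 646, 618 and 625 with DSHN, 660.4, 657, 651, 756 and 709.7 with GW3965, and 682, 599.5, 635, 724 and 723 with DMSO. Combination and GW3965 libraries lay above all DSHN libraries by a small margin, and each treatment overlapped DMSO. No treatment was called against DMSO: the combination gave 0.07 ± 0.05 (adjusted p = 0.179, 95% interval -0.03 to 0.17), DSHN -0.11 ± 0.05 (95% interval -0.21 to -0.01) and GW3965 0.03 ± 0.05 (95% interval -0.07 to 0.13). The combination was above DSHN by 0.18 ± 0.05, adjusted p = 0.00251, but at 0.10 (adjusted p = 0.0952) with the length term. Exons of Rabepk on the opposite strand share 33.6% of the exon bases of Hspa5. By the counting defaults, reads on these bases were left out of both genes. Rabepk held 166 to 282 reads per library and Hspa5 at least 11056.

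Hyou1, the nucleotide exchange factor of Hspa5, was counted at 197, 186, 177, 200.0 and 191 CPM with both compounds, 195, 184, 189, 199 and 200.4 with DSHN, 204, 199, 193, 239 and 209.6 with GW3965, and 237, 199, 207, 251 and 251 with DMSO. All DSHN libraries reached at most 200.4 CPM and 4 of the 5 DMSO libraries lay above that. It was lower with DSHN (-0.24 ± 0.06, adjusted p = 0.00252) and with both compounds (-0.27 ± 0.06, adjusted p = 0.000282, or -0.16 with the length term). The difference from GW3965 (-0.14, adjusted p = 0.0492) was lost without any of 6 single libraries (adjusted p 0.053 to 0.203).

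Manf and Creld2, small secreted ER stress proteins, changed in the same directions. Manf, with exons of 868 bases, was counted at 112, 105, 106, 131 and 113 CPM with both compounds, 93.1, 86.0, 85.0, 80.6 and 83.1 with DSHN, 77.5, 82.9, 83.1, 97.1 and 87.6 with GW3965, and 99.9, 90.7, 95.4, 110.5 and 108 with DMSO. DSHN and GW3965 libraries were mostly below those of DMSO, and combination libraries overlapped DMSO. DSHN gave -0.23 ± 0.06 and GW3965 -0.23 ± 0.06 against DMSO, and Creld2 -0.24 ± 0.08 and -0.22 ± 0.08 (highest adjusted p of the 4 = 0.0195). The combination was above GW3965 by 0.40 ± 0.06 in Manf and 0.36 ± 0.08 in Creld2, or 0.07 (adjusted p = 0.317) and 0.10 (adjusted p = 0.225) with the length term. The call of Manf against DMSO in the combination also ended without DMSO replicate 2 (adjusted p = 0.0625) or combination replicate 4 (0.0902).

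**Figure D3:**
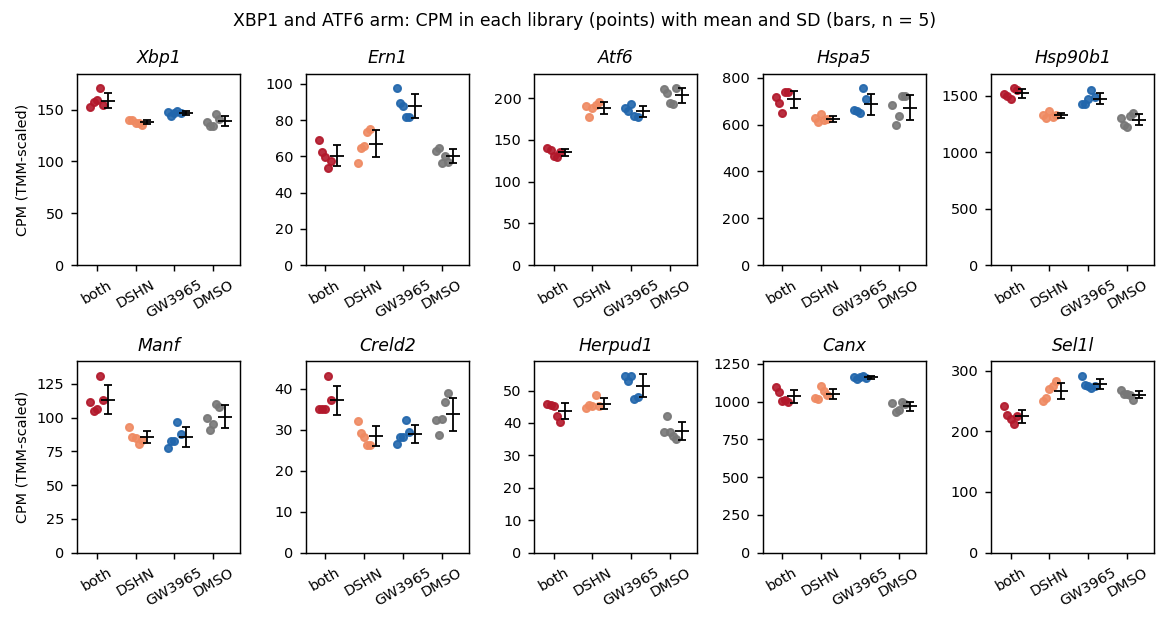
CPM (vertical axes, from 0, TMM-scaled) of 10 XBP1 and ATF6 arm members in each library (points), with mean and SD of the 5 libraries beside them, for both compounds, DSHN, GW3965 and DMSO from left to right. Ern1, Herpud1 and Canx peaked with GW3965, Atf6 was lowest with both compounds, and Hspa5 overlapped DMSO in every treatment.

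Dnajb9, a co-chaperone of Hspa5, was counted at 54.1, 59.2, 56.4, 55.9 and 60.7 CPM with both compounds, 45.3, 47.3, 48.5, 47.2 and 50.2 with DSHN, 55.2, 56.1, 55.9, 53.6 and 55.5 with GW3965, and 45.8, 46.1, 44.6, 46.5 and 47.6 with DMSO. GW3965 and combination libraries lay above those of DMSO, and DSHN libraries overlapped DMSO. GW3965 raised it by 0.26 ± 0.04, adjusted p = 2.43e-06, the combination by 0.31 ± 0.04, or by 0.12 with the length term. The disulfide isomerase Pdia3 was counted at 1016, 1018, 976, 1027 and 1010.2 CPM with both compounds, 917, 913, 957, 916 and 911 with DSHN, 999, 987, 1022, 1019 and 1024 with GW3965, and 883, 835, 839, 891 and 885 with DMSO. Each treated library lay above every DMSO library, with rises of 0.22 ± 0.03 for the combination, 0.09 ± 0.03 for DSHN and 0.22 ± 0.03 for GW3965. Exons of Catsper2 on the opposite strand share 8.48% of its exon bases, with 2 to 14 reads per library. Hsp90b1, the ER form of HSP90, rose by 0.24 ± 0.03 with both compounds and 0.20 ± 0.03 with GW3965.

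Canx, the membrane lectin chaperone, was counted at 1096, 1064, 1003, 1012 and 998 CPM with both compounds, 1025, 1018, 1103, 1069 and 1042 with DSHN, 1160.4, 1151, 1167, 1173 and 1156 with GW3965, and 988, 931, 945, 998 and 986 with DMSO. GW3965 libraries lay above all others, and every DMSO library below every DSHN library. GW3965 raised Canx by 0.26 ± 0.03, adjusted p = 2.07e-07. The combination was lower than GW3965 at -0.17 ± 0.03, or -0.11 with the length term, and its call against DMSO (0.09) ended without combination replicate 1 (adjusted p = 0.0523). Calr, the soluble lectin chaperone, rose with GW3965 by 0.23 ± 0.04. Its call against DMSO in the combination (0.11) ended without DMSO replicate 2 or 3 (adjusted p = 0.0565 and 0.0518) and with the length term (-0.06, adjusted p = 0.158).

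The degradation genes split. Herpud1, which scaffolds the retrotranslocation complex and whose promoter is printed above, was counted at 45.8, 45.5, 45.3, 42.2 and 40.3 CPM with both compounds, 44.7, 45.7, 45.3, 48.8 and 45.3 with DSHN, 54.4, 52.9, 54.6, 47.3 and 48.1 with GW3965, and 37.3, 42.1, 37.1, 36.0 and 35.0 with DMSO. DMSO libraries lay below those of DSHN and GW3965 and overlapped the combination by 1 library. The rises against DMSO were 0.23 ± 0.05, adjusted p = 0.000565 with both compounds, 0.29 ± 0.05, adjusted p = 0.000123 with DSHN and 0.46 ± 0.05, adjusted p = 6.41e-08 with GW3965, the first at 0.06 (adjusted p = 0.355) with the length term. The ubiquitin ligase Syvn1 was called in no contrast, with -0.04 for DSHN, 0.05 for GW3965 and 0.03 for the combination against DMSO.

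Sel1l, the adaptor of that ligase, was counted at 241, 226, 219.7, 212 and 225 CPM with both compounds, 250.0, 256, 269, 274 and 282 with DSHN, 292, 277, 275, 272 and 275 with GW3965, and 268, 261, 262, 259.9 and 251 with DMSO. The combination libraries lay below the other 15. It had -0.21 ± 0.04, adjusted p = 1.51e-05 against DMSO and -0.03 (adjusted p = 0.411) with the length term. Edem1, a mannosidase-like lectin with the longest exons of the 38 at 10749 bases, was counted at 340.4, 344, 337, 319 and 325 CPM with both compounds, 367, 368, 373, 383 and 373 with DSHN, 412, 403, 398, 387 and 387 with GW3965, and 370.5, 366, 370.1, 365 and 362 with DMSO. GW3965 libraries lay above and combination libraries below all DMSO libraries, while the length term set the combination at 0.00019 against GW3965, where it was -0.25 without it.

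The interaction contrast takes the effect of DSHN in the presence of GW3965 minus its effect without. It called 5 ATF4 arm members higher (Atf4, Nupr1, Shmt2, Mthfd2 and Slc3a2) and 3 lower (Eif2ak3, Eif2ak4 and Sesn2), and 4 XBP1 and ATF6 arm members higher (Xbp1, Creld2, Manf and Pdia4) and 7 lower (Ern1, Atf6, Calr, Canx, Herpud1, Sel1l and Edem1), beside 50.2% of all tested genes in either direction, 23.7% higher and 26.5% lower. With the length term 13 of these 19 calls kept their direction. Among them, Atf4 was at 0.63 and 0.45 with the length term, Sesn2 at -0.61 and -0.69, Ern1 at -0.69 and -0.51, Herpud1 at -0.52 and -0.67, Manf at 0.64 and 0.35, and Creld2 at 0.60 and 0.37. Atf5 was not called, with 0.04 ± 0.06 (95% interval -0.09 to 0.17). Neither was Ddit3, with 0.04 ± 0.09 (95% interval -0.14 to 0.22), nor Hsp90b1, with -0.0023 ± 0.05 (95% interval -0.10 to 0.09). The interaction of Xbp1 ended without any of 5 single libraries (adjusted p 0.0538 to 0.0822) and that of Shmt2 without any of 4 (0.0524 to 0.0596).

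The members are shorter than most genes, with median exon lengths of 2365.5 bases in the ATF4 arm and 2649 bases in the other arm, against 3758 bases over all tested genes. With all tested genes sorted into 5 length classes of like size, from short to long, the median log2 fold change of the combination against DMSO was 0.33, 0.11, -0.04, -0.14 and -0.25, while for GW3965 it was 0.06, 0.01, -0.02, -0.0049 and -0.0013. Some members are given here beside the median of their own length class, and the source of the trend was not tested. Atf5, with 1993 bases, was at 0.99 beside a median of 0.11 for genes of its length class, whereas Xbp1, with 2247 bases, was at 0.19 beside the same median. Slc7a5, with 3513 bases, was at -0.46 beside -0.04, and Manf, with 868 bases, at 0.17 beside 0.33.

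**Figure D4:**
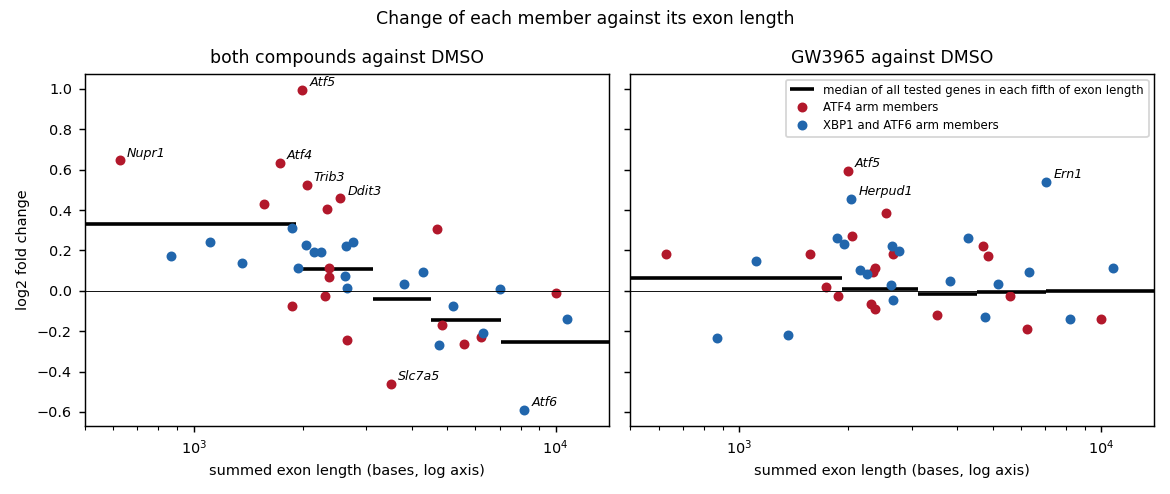
Log2 fold change (vertical axis) of each member against its summed exon length (bases, log axis), for both compounds against DMSO (left) and GW3965 against DMSO (right). Black lines give the median of all tested genes in each of 5 length classes, from 0.33 to -0.25 on the left and near 0 on the right; Atf5, Atf4, Trib3 and Ddit3 lie above the line of their length and Slc7a5 and Atf6 below it.

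Further genes of the pathways came from lists drawn up with earlier results of these data known. Shares of all tested genes called in either direction against DMSO were 29.0% with DSHN, 46.5% with GW3965 and 64.8% with both compounds. Of 36 other tested ATF4 targets, transporters and tRNA synthetases, 4 were called higher and 11 lower with DSHN, 8 and 8 with GW3965, and 11 and 16 with both compounds, each against DMSO, or 41.7%, 44.4% and 75% of the list, with medians of -0.09, -0.00026 and -0.14. Gdf15, a stress cytokine, rose by 1.01 ± 0.09 with GW3965 and 1.44 ± 0.09 with both compounds, or 1.25 with the length term, more than any member. Xpot, which exports tRNA from the nucleus, fell with DSHN (-0.31 ± 0.04), GW3965 (-0.32 ± 0.04) and both (-0.58 ± 0.04, or -0.40 with the length term), and the glutamine carrier Slc1a5 fell with DSHN (-0.36 ± 0.05). Atf3, another factor of the response, was higher with both compounds than with DSHN (0.51 ± 0.03, or 0.35 with the length term). Slc7a11, the cystine carrier, was lower in that contrast (-1.02 ± 0.11, or -0.79 with the length term).

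Of 43 other tested ER folding, degradation and translocation genes, 3 were higher and 9 lower with DSHN, 10 and 9 with GW3965, and 18 and 17 with both compounds, against DMSO, or 27.9%, 44.2% and 81.4% of the list beside the same 29.0%, 46.5% and 64.8%, with medians of -0.03, -0.0038 and 0.02. Crebrf, a regulator that restrains the response, rose with DSHN (0.60 ± 0.11) and GW3965 (0.86 ± 0.11). Derl1, a channel component of ER degradation, was higher with DSHN (0.11 ± 0.03), GW3965 (0.28 ± 0.03) and both (0.31 ± 0.03), and Uggt1, which checks glycoprotein folding, was lower with both (-0.66 ± 0.06, or -0.42 with the length term). Both proteases that cut ATF6 were lower in the combination than with GW3965, Mbtps1 at -0.44 ± 0.05 and Mbtps2 at -0.37 ± 0.04. With the length term they were at -0.36 and -0.28. Of 13 genes of eIF2 control, 1 was higher and 2 lower with DSHN, 3 and 4 with GW3965, and 2 and 6 with both compounds, or 23.1%, 53.8% and 61.5% of the list. Gcn1, the ribosome-bound activator of GCN2, fell with both (-0.90 ± 0.06, or -0.66 with the length term), Eif2s2, the beta subunit of eIF2, rose (0.48 ± 0.04), and Eif2s1, the alpha subunit, fell with DSHN (-0.26 ± 0.04) and GW3965 (-0.27 ± 0.04).

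Within a treatment, the chaperones often had their extreme value in the same library. GW3965 replicate 4 was the highest of its group for 12 of the 20 XBP1 and ATF6 arm members, among them Hspa5, Manf, Creld2, Hyou1 and Sdf2l1, and combination replicate 4 for 10 of them, including the same 5. In DMSO, replicates 4 and 5 were highest for 8 members each and replicate 2 was lowest for 10. In DSHN, replicate 3 was highest for 7 members, among them Hspa5, and replicate 4 for 3 (Edem1, Herpud1 and Syvn1). DSHN replicate 4 was lowest for Creld2, Manf and Pdia6. In the ATF4 arm, DMSO replicate 5 was highest for 7 of 18 members, including Atf4, Ddit3, Asns and Mthfd2, and replicate 2 lowest for 8. These members share their libraries and scaling, and the counts are a description with no test.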

How the data were processed

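Libraries of stranded mRNA were prepared with a Kapa kit from 20 macrophage cultures (4 treatments, 5 biological replicates each), per the labels' protocols. The authors deposited a count table for each library, with unscaled numbers of reads for every gene. Reads were aligned with STAR to GRCm39 and counted over exons of the RefSeq annotation with featureCounts 2.0.0, per the file headers and the submitters' processing notes. No option for strand, multi-mapped reads or reads over several genes stands in the header's command. By the tool's defaults, reads of either strand were then counted, while multi-mapped reads and reads over several genes were left out. Exon lengths and positions are those of the files.

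Genes were named from a RefSeq table by GeneID (44749 of 46318), and 179 of 180 list entries matched. The filterByExpr rule of edgeR 4.0.16 (R 4.3.3) left 13307 genes, TMM gave the scaling, and the quasi-likelihood test was fitted to all 20 libraries with 1 mean per treatment. In all, 6 contrasts were tested, with Benjamini-Hochberg adjustment over all tested genes and calls under 0.05. Totals of 16855029 to 23796561 counts set the depth. The biological coefficient of variation was 0.0536, and over 40 replicate pairs chi-square divided by its degrees of freedom was 2.37 to 12.3, above counting error. Alternatives were DESeq2 size factors, total counts, DESeq2 1.42.0, limma voom (limma 3.58.1), no filter, a filter at 100 counts and at least 1 CPM in 5 libraries, fits to the contrast's own groups, a replicate block, offsets per library along log2 exon length (the length term, a natural spline, 5 df), the block with that term, and leaving out each library.

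The members, the other lists, the motifs and the alternatives were chosen with earlier results of these data known. Values in every library are given for Atf4, Ddit3, Xbp1 and Hspa5 and, per arm and pairwise contrast, the 3 called members with the smallest adjusted p. From each other list, some of the 3 genes per contrast with the smallest adjusted p are named, not all. Promoter sequences came from RefSeq (GRCm38.p6) and were matched by GeneID, with no coordinate moved between builds.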

Additional observations from a re-analysis of the deposited data

Results flagged for a closer look

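Over 152 sets of 5 libraries (38 members in 4 treatments), 7 libraries lay farther from the rest of their group than Dixon's 95% limit, a share that chance gives in about 1 of 20 sets. They were Atf5 at 118 CPM in combination replicate 3, Phgdh at 19.5 CPM in combination replicate 2, Creld2 at 43.2 CPM in combination replicate 4, Pdia3 at 957 CPM in DSHN replicate 3, Herpud1 at 48.8 CPM in DSHN replicate 4, Sel1l at 292 CPM in GW3965 replicate 1 and Nupr1 at 15.6 CPM in DMSO replicate 3.

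The effect of DSHN with GW3965 minus its effect without was called for 19 members, on the log2 scale and beside 50.2% of all tested genes. In the ATF4 arm the differences were 0.63 for Atf4, 0.44 for Mthfd2, 0.30 for Nupr1, 0.27 for Slc3a2, 0.17 for Shmt2, -0.23 for Eif2ak4, -0.46 for Eif2ak3 and -0.61 for Sesn2. In the XBP1 and ATF6 arm they were 0.64 for Manf, 0.60 for Creld2, 0.17 for Pdia4, 0.12 for Xbp1, -0.16 for Calr, -0.28 for Edem1, -0.28 for Canx, -0.34 for Sel1l, -0.34 for Atf6, -0.52 for Herpud1 and -0.69 for Ern1. The combination libraries that enter this difference are also those with the exon-length trend.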

How the results depend on the processing

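The length term, alone or with a replicate block, moved the most results. Alone it left 9 calls in the XBP1 and ATF6 arm for the combination against DMSO, in place of 14. Of 228 log2 fold changes of members, it turned 19 round, weakened 29 and strengthened 11, against 20, 31 and 15 with the block added. A value counts here as turned round only if its sign changed and it was called in either fit. Sign changes of values called in neither fit are not listed. Signs that turned, given with the length term and then with it plus a replicate block, were, for the combination against DMSO, 0.236 and 0.238 for Slc3a2, -0.0906 and -0.0904 for Sdf2l1, -0.218 and -0.219 for Manf, -0.0646 and -0.0633 for Calr and 0.112 and 0.111 for Edem1, with Creld2 at -0.144 under the second. Against GW3965 they were -0.0195 and -0.0198 for Xbp1, -0.13 and -0.13 for Dnajb9, 0.00028 and 0.000902 for Dnajc3 and -0.198 and -0.198 for Sdf2l1, with Shmt2 at -0.0855 under the second and Edem1 at 0.000193 under the length term. Against DSHN they were -0.00887 and -0.00943 for Shmt2, 0.0994 and 0.0989 for Dnajc3, -0.108 and -0.109 for Sdf2l1, -0.0963 and -0.0974 for Calr and 0.0798 and 0.0795 for Edem1. For the interaction they were -0.0221 and -0.0207 for Nupr1, -0.00662 and -0.00763 for Xbp1, -0.164 and -0.164 for Dnajb9 and -0.216 and -0.217 for Sdf2l1. By its construction the term takes out any change shared by genes of 1 length class, whatever its source.

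The other settings were DESeq2 size factors, total counts, DESeq2, limma voom, no filter, a stricter filter, fits to the contrast's own groups, and the replicate block alone. Under these, no member's log2 fold change that was called in either fit changed sign, and no count of calls moved over 1.5 times. Leaving out 1 library at a time gave 6 to 10 calls in the ATF4 arm (11 with all) and 5 to 9 in the XBP1 and ATF6 arm (8 with all) for DSHN against DMSO, and 7 to 11 in the ATF4 arm (11 with all) for GW3965 against DMSO. Over 2660 such values of members, 2514 stayed on their side of the threshold, called or not, 111 lost a call and 35 gained one. No value called in either fit changed sign. Sign changes of values called in neither fit were not counted. Correlations between libraries of different treatments were taken on log2 CPM after removing each gene's mean within its treatment. Same-numbered libraries correlated at -0.205 to 0.247 over 30 pairs (10 over 0.1). Their median was 0.0399, against -0.00916 over 120 pairs of unlike number, and 9 of 20 libraries correlated best with their own number. The numbers were not read as pairs because the labels state no pairing. Whether same-numbered libraries share a source was not tested. With the replicate block, 10 ATF4 arm members were called for DSHN against DMSO in place of 11, and over 228 values of members 1 call ended (Ppp1r15a for DSHN against DMSO) and 5 were added (Hyou1 for GW3965 against DMSO, Mthfd2 for the combination against DMSO, Pdia6 for it against GW3965, and Slc7a5 and Hspa5 for the interaction). Total counts moved the median of all genes by up to 0.0744. Every member passed the filter, so the exact permutation test planned for members below it had no gene to test, nor had its scaling alternative. Depth limits Chac1 most, at 42 to 104 reads per library.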
